A study of Solanum lycopersicum with 2 samples.

Results

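WRKY proteins are plant transcription factors named after the conserved amino acids of their DNA-binding domain. They bind W-box elements in promoters, and many are known as early regulators of the response to pathogens, wounding and other stress. In Arabidopsis the WRKY33 protein is known for resistance to fungi that kill host tissue, and it has also been tied to heat tolerance. The 8 tomato gene models described here were taken from a given list of WRKY factors, of which the first 2, Solyc09g014990.2 and Solyc06g066370.2, are listed as the WRKY33 type. They are 8 of the 24915 gene models that appear in at least 1 of the libraries, and all 8 were listed in both. They lie on 5 chromosomes, with pairs on chromosomes 3, 6 and 8 and single models on chromosomes 5 and 9. The deposited tables hold identifiers without gene names or sequences, so the WRKY assignment was not checked against them, and neither was the labelled tissue against leaf genes.

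The RNA came from young leaves of tomato (Solanum lycopersicum) cultivar Moneymaker, from 8-week-old plants raised in a glasshouse with a 16 h day at 24°C and an 8 h night at 20°C. One library was made from control plants. The other was made from plants put into a growth chamber with light of 120 μmol m-2 s-1, kept at 39°C for 1 h and then at 24°C for 1.5 h, so it describes leaves early in recovery and not at the end of the heat. Whether control plants spent time in that chamber is not stated in the labels, so heat and transfer cannot be told apart. Leaves of different stages were collected, and the number of plants behind each library is not given.

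Both libraries were made by MACE (massive analysis of cDNA ends), which reads a fragment from the 3′ end of each poly-A transcript. The control library held 11534512 mapped reads and the heat-stress library 13857252. Levels are reads per 1000000 mapped reads (RPM), which here need no length term, and different models were set side by side on that basis. Listed models held 72.5% of mapped reads in control leaves and 71.1% after heat. How completely each model covers the 3′ end of its transcript was not checked, and intervals on levels leave this out. With 1 library per condition there was no replicate and no test between conditions. The 95% intervals below reflect counting error alone, not the spread between plants. In whole leaves a change in the cells that make a transcript and a change in the RNA per cell cannot be told apart.

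All 8 WRKY models had a higher level after heat, but by very different amounts. Among them were 6 averaging 5 RPM or more over both libraries, and 60.6% of all models at that level were higher after heat. Solyc08g067340.2 stood out at 5.52 times its control level and Solyc08g008280.2 followed at 2.97 times, while the other 6 lay between 1.20 and 1.92 times. In the 6 models averaging 5 RPM or more the counting interval of the ratio lay wholly above 1, as it did in 36.0% of all models at that level. In the other 2, Solyc09g014990.2 and Solyc05g015850.2, it included 1. The 8 models together had 84.8 RPM in control leaves (95% Poisson interval 79.6 to 90.3) and 166 RPM after heat (159 to 173), a ratio of 1.95 (1.81 to 2.11). Without Solyc08g067340.2 the ratio of the sums was 1.71 (1.58 to 1.86).

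**Figure D1:**
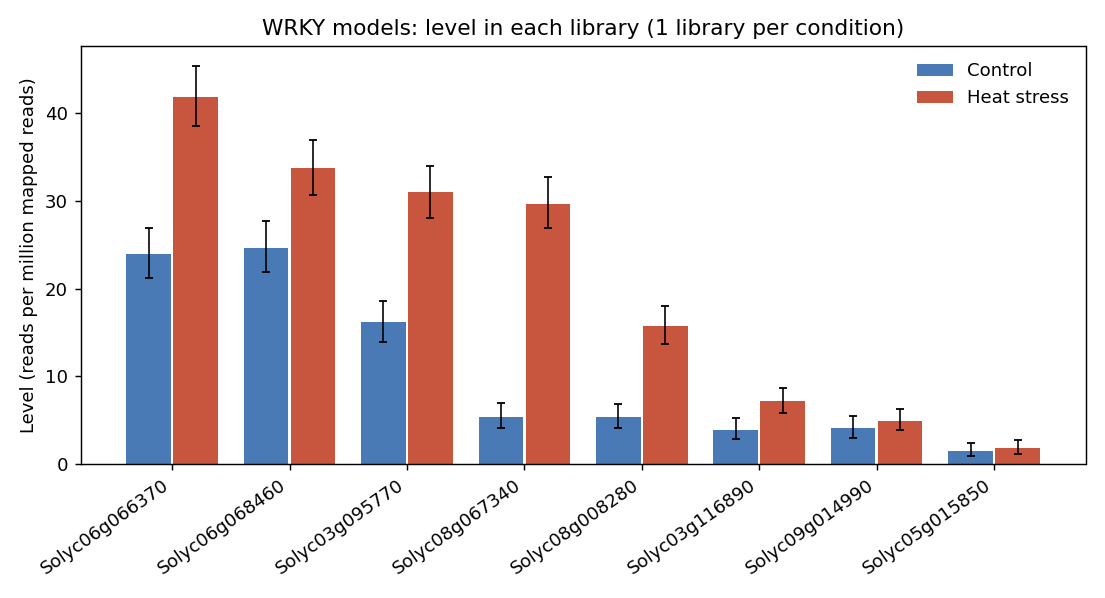
Level of each WRKY model (vertical axis, RPM) in the control (blue) and heat-stress (red) libraries, ordered by the heat-stress level; bars show 1 library each and error bars the 95% Poisson interval of its reads. The heat-stress bar is the taller one for all 8 models, from 1.47 against 1.80 RPM in Solyc05g015850.2 to 5.38 against 29.6 RPM in Solyc08g067340.2.

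The pair of the WRKY33 type differed from each other in level. Solyc06g066370.2, on chromosome 6, had 276 reads in control leaves, or 23.9 RPM (21.2 to 26.9), and 580.5 reads after heat, or 41.9 RPM (38.5 to 45.4). These intervals did not overlap, and the ratio was 1.75 (1.51 to 2.03). Solyc09g014990.2, on chromosome 9, had 47 reads in control leaves, or 4.07 RPM (2.99 to 5.42), and 68 after heat, or 4.91 RPM (3.81 to 6.22). Its intervals overlapped and its ratio was 1.20 (0.818 to 1.79), so no difference was detectable at this depth, though the upper bound leaves room for a level up to 1.79 times that of the control. The chromosome 6 model was 5.87 times as abundant as the chromosome 9 model in control leaves and 8.54 times after heat. Their ratios between libraries were not separated by counting error: the first was 1.45 times the second, with an interval of 0.952 to 2.20.

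The largest difference belonged to Solyc08g067340.2, on chromosome 8. It had 62 reads in control leaves, or 5.38 RPM (4.12 to 6.89), and 411 reads after rounding after heat, or 29.6 RPM (26.9 to 32.7). The levels were far apart, with a ratio of 5.52 (4.22 to 7.33) and a log2 ratio of 2.27 after adding 1 RPM to both levels. This model alone made up 6.34% of the summed WRKY level in control leaves, 17.9% after heat and 30.0% of the gain. Part of its heat-stress reads was divided with another location, as the deposited number was not whole. The same holds for Solyc06g066370.2 after heat and for Solyc06g068460.2 in control leaves.

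The other model on chromosome 8, Solyc08g008280.2, started from nearly the same level. It had 61 reads or 5.29 RPM (4.05 to 6.79) in control leaves and 218 reads or 15.7 RPM (13.7 to 18.0) after heat. That is a ratio of 2.97 (2.23 to 4.02), or 1.41 on the log2 scale with 1 RPM added, again with no overlap of the levels. Its read numbers were whole in both libraries. Although the chromosome 8 models had nearly equal control levels, the ratio of Solyc08g067340.2 was 1.85 times that of Solyc08g008280.2 (1.23 to 2.79).

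Of the models on chromosome 3, Solyc03g095770.2 was the more abundant. It had 186 reads or 16.1 RPM (13.9 to 18.6) in control leaves and 429 reads or 31.0 RPM (28.1 to 34.0) after heat, a ratio of 1.92 (1.61 to 2.29). Solyc03g116890.2 had 45 reads or 3.90 RPM (2.85 to 5.22) and 99 reads or 7.14 RPM (5.81 to 8.70), a ratio of 1.83 (1.28 to 2.67). The levels of each model did not overlap between libraries. These ratios were close to each other, and the first was 1.05 times the second (0.691 to 1.57).

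Solyc06g068460.2, on chromosome 6, was the most abundant WRKY model of the control library, level with Solyc06g066370.2 within counting error. It had 284.5 reads or 24.7 RPM (21.8 to 27.7) in control leaves and 467 reads or 33.7 RPM (30.7 to 36.9) after heat. The ratio was 1.37 (1.18 to 1.59), the smallest of those whose interval lay above 1. Solyc05g015850.2, on chromosome 5, was the least abundant, with 17 reads or 1.47 RPM (0.859 to 2.36) and 25 reads or 1.80 RPM (1.17 to 2.66). Its ratio of 1.22 (0.635 to 2.42) rested on so few reads that neither a lower level nor a 2-fold higher one lay outside the interval.

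**Figure D2:**
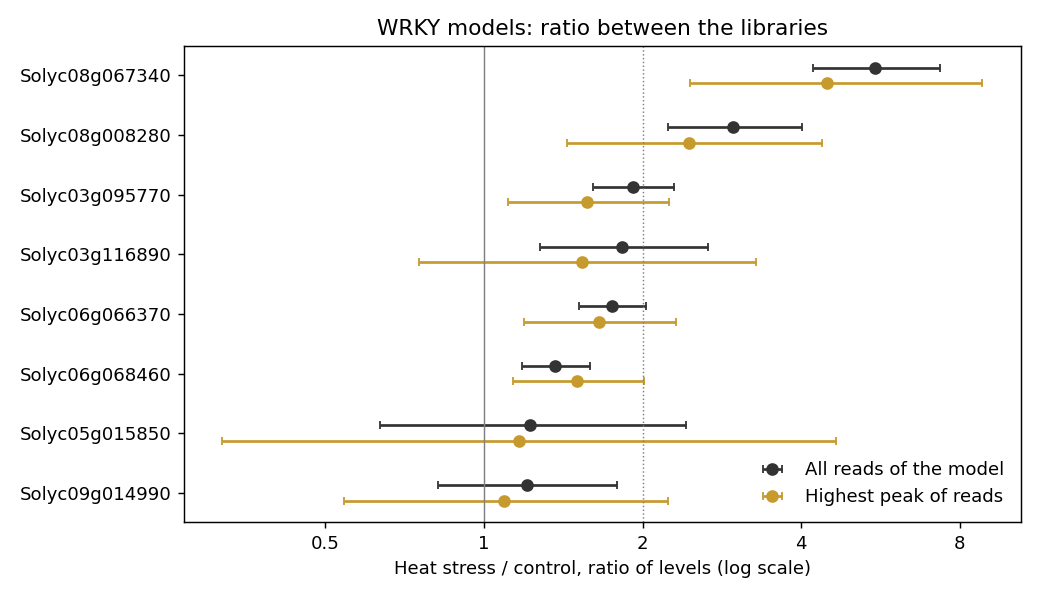
Ratio of the heat-stress to the control level for each WRKY model (horizontal axis, log scale) from all reads of the model (black) and from its tallest peak of reads (yellow), with 95% counting intervals; lines mark ratios of 1 and 2. From all reads only Solyc08g067340.2 and Solyc08g008280.2 have intervals wholly above 2, and the 2 lowest models have intervals that include 1.

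Read against a ratio of 2, the members fell into 3 sets. The intervals of 2 lay wholly above it, those of Solyc08g067340.2 and Solyc08g008280.2. The intervals of 4 included it, those of Solyc03g095770.2, Solyc03g116890.2, Solyc06g066370.2 and Solyc05g015850.2. Those of 2, Solyc06g068460.2 and Solyc09g014990.2, lay wholly below it. Among all models averaging 5 RPM or more, 2.48% had an interval wholly above a ratio of 2. Intervals that included 2 or lay below it were not counted over all models. Over the 28 pairs of members, 16 had ratios that differed beyond counting error at 95% for each pair, with no correction over the pairs. Pairs of other models were not counted, so this is not shown to be a trait of the WRKY set. Of these 16, 13 involved Solyc08g067340.2 or Solyc08g008280.2, each of which was apart from all 7 others. Among the other 6 models 3 of 15 pairs were apart: Solyc03g095770.2 from Solyc06g068460.2 (1.41 times, 1.11 to 1.77) and from Solyc09g014990.2 (1.59 times, 1.03 to 2.44), and Solyc06g066370.2 from Solyc06g068460.2 (1.28 times, 1.03 to 1.58).

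The order of the levels changed with this. In control leaves it ran from Solyc06g068460.2 and Solyc06g066370.2, not separated by their intervals, to Solyc03g095770.2, which stood apart on both sides. Below it came Solyc08g067340.2, Solyc08g008280.2, Solyc09g014990.2 and Solyc03g116890.2, each overlapping the next, and last Solyc05g015850.2. After heat Solyc06g066370.2 was highest and stood apart. Solyc06g068460.2, Solyc03g095770.2 and Solyc08g067340.2 followed, each overlapping the next, then Solyc08g008280.2 on its own. Solyc03g116890.2 and Solyc09g014990.2 overlapped below it, and Solyc05g015850.2 was again last. The level of Solyc06g068460.2 was 4.59 times that of Solyc08g067340.2 in control leaves and 1.14 times after heat. Members above 10 RPM numbered 3 in control leaves and 5 after heat. The share of all models above 10 RPM was not counted. Over all models averaging 5 RPM or more, the median level was 20.0 RPM in control leaves and 21.9 RPM after heat. The highest member was 16.7 times the lowest in control leaves and 23.2 times after heat.

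Set among all gene models, the WRKY models ranged from below the middle to the upper part of the abundance range. The share of listed control models with a lower level ran from 35.5% for Solyc05g015850.2 to 79.1% for Solyc06g068460.2. After heat it ran from 38.7% for Solyc05g015850.2 to 86.6% for Solyc06g066370.2. Solyc08g067340.2 moved from above 52.6% of the listed models to above 81.6%, and Solyc08g008280.2 from 52.4% to 70.2%.

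For counts over all models a mean of at least 5 RPM over both libraries was required, and the log2 ratio was taken after adding 1 RPM to each level. Of the 8 WRKY models 6 passed. Solyc03g116890.2 was just inside, at a mean of 5.52 RPM, and passed only through its heat-stress level. Solyc09g014990.2 was just outside at 4.49 RPM, and Solyc05g015850.2 was at 1.64 RPM. At least 2-fold higher were 2 of the 6, Solyc08g067340.2 and Solyc08g008280.2, where 3.91% of the 11271 models tested were. At least 2-fold lower were 0 of the 6, where 1.66% of all models were. Solyc08g067340.2 was also over 4-fold higher, as were 0.772% of all models. An interval wholly above a ratio of 2 was found in 2 of the 6 and in 2.48% of all models. An interval wholly below 1 was found in 0 of the 6 and in 20.8% of all models. The list was compiled with earlier results of these libraries known, so these counts describe it and test nothing.

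The median log2 ratio of the 6 was 0.84, beside 0.10 over all 11271 models (interquartile range -0.17 to 0.37). All 8 without the filter had a median of 0.76, beside 0.07 over all listed models. A common scaling that sets the median ratio of all models to 1 lowers every heat-stress level by a factor of 1.08, or 0.11 on the log2 scale. Relative to that shift the log2 ratio was 2.16 for Solyc08g067340.2, 1.31 for Solyc08g008280.2, 0.79 for Solyc03g095770.2, 0.68 for Solyc06g066370.2 and 0.64 for Solyc03g116890.2. It was 0.33 for Solyc06g068460.2, 0.13 for Solyc09g014990.2 and 0.11 for Solyc05g015850.2, so all 8 stayed above 0. Under this scaling 329 of all models were 2-fold higher and 262 lower, and the higher share of these calls was 55.7%, against 70.2% without it. The same number of WRKY models, 2, was 2-fold higher.

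In the order of log2 ratios over the 11271 models, Solyc08g067340.2 ranked 64 and Solyc08g008280.2 ranked 186. Solyc03g095770.2 ranked 559, Solyc06g066370.2 ranked 776, Solyc03g116890.2 ranked 882 and Solyc06g068460.2 ranked 2279. Each was also set beside the models past the filter whose mean level lay within 2-fold of its own. For Solyc03g116890.2, close to the filter, this leaves out models under 5 RPM, so its comparison set is mostly more abundant than itself. There 16 of 5731 models had a log2 ratio as high as that of Solyc08g067340.2 (0.279%, itself included) and 61 of 5484 as high as that of Solyc08g008280.2 (1.11%). The share was 4.21% for Solyc03g095770.2, 6.24% for Solyc06g066370.2, 8.58% for Solyc03g116890.2 and 19.3% for Solyc06g068460.2. For Solyc06g068460.2 many models of like level thus had a ratio as high, even though its counting interval excluded 1.

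**Figure D3:**
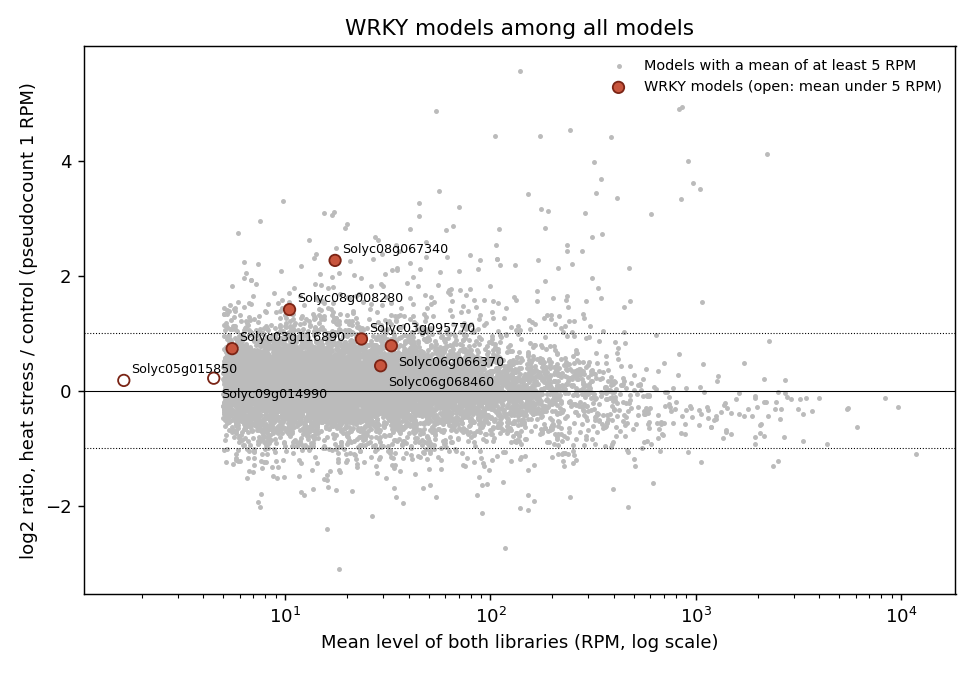
log2 ratio of heat stress to control (vertical axis, pseudocount of 1 RPM) against the mean level of both libraries (horizontal axis, RPM, log scale) for all 11271 models past the filter (grey) and the WRKY models (red, open when under 5 RPM); dotted lines mark 2-fold. All WRKY points lie above 0, and Solyc08g067340.2 at 2.27 and Solyc08g008280.2 at 1.41 lie above the upper dotted line.

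The deposited height of each model's tallest read peak gave a second view, not taken as independent of the reads. In all 8 WRKY models the peak was lower than the model's reads. The shares given for all models past the filter were not limited to models where this holds. Scaled to mapped reads, the tallest peak was higher after heat for all 8 models. That includes the 6 past the filter, where 56.2% of all models past it had a higher peak. For Solyc08g067340.2 it was 13 reads in control leaves and 70 after heat, a ratio of 4.48 (2.46 to 8.83). For Solyc08g008280.2 it was 19 and 56 reads, a ratio of 2.45 (1.44 to 4.37), though its log2 ratio with the pseudocount of 1 RPM was 0.93, just under 2-fold. Peak ratios of the other 6 ran from 1.09 in Solyc09g014990.2 to 1.65 in Solyc06g066370.2, and 5 of the 8 models had a peak interval above 1, all of them among the 6 past the filter, beside 18.1% of all models past it. The model that lost this call beside all reads was Solyc03g116890.2, at 1.54 (0.752 to 3.29) from 13 and 24 reads.

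That peak held a smaller part of the model's reads after heat for 7 of the 8 models. Of the 6 past the filter it did so in 5, and among all models past it the share that did so was 58.7%, so a smaller part was common. It was 21.0% in control leaves and 17.0% after heat for Solyc08g067340.2, 31.1% and 25.7% for Solyc08g008280.2, and 28.0% and 22.8% for Solyc03g095770.2. Solyc06g068460.2 was the exception, at 27.4% and 30.2%. Among 8945 models with 100 or more reads in each library and no peak above their reads, the median share was 25.4% and 24.7%. Only 3 of the WRKY models have that many reads, so these medians are no like-for-like reference for the other 5. These shares rest on 5 to 141 reads per peak, carry no interval here and come from libraries of unequal depth. All 8 models also had more reads after heat, and the models behind the 58.7% were not matched for such a gain. Whether the smaller part goes with the gain in reads was not tested.

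The models next to each WRKY model in identifier order, which follows the chromosome, were looked at because the labels do not say whether counting used strand, and reads of overlapping models cannot be told apart. Of the 16 neighbours 10 passed the filter, as did 11271 of the 24915 models. Of those 10 neighbours 1 was at least 2-fold higher and 0 were 2-fold lower, beside 3.91% and 1.66% of all models past the filter. None of the neighbours had the same peak heights as the WRKY model beside it. The neighbours of Solyc08g008280.2 were both lower after heat, at log2 ratios of -0.44 and -0.51, against 1.41 in the WRKY model. The 2-fold higher neighbour was Solyc09g015000.2, on the same strand as the WRKY33-type Solyc09g014990.2. It had 146 RPM in control leaves and 1796 RPM after heat, a ratio of 12.3 (11.7 to 12.9), beside 1.20 in the WRKY model.

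Solyc08g067360.2, the next listed model after Solyc08g067340.2 and on the same strand, fell outside the rule for naming because its mean was under 5 RPM, and was singled out after its values were seen. It had 22 reads or 1.91 RPM in control leaves and 93 reads or 6.71 RPM after heat. Its ratio of 3.52 (2.19 to 5.88) was the only one above 2 among the neighbours under 5 RPM that had control reads. The neighbour on the other side of Solyc08g067340.2, on the opposite strand, had 17 and 14 reads. The part of reads divided between locations in the higher level of Solyc08g067340.2 was not tested. Whether Solyc08g067360.2 is itself a WRKY gene could not be told, as its identifier matched no reference gene.

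**Figure D4:**
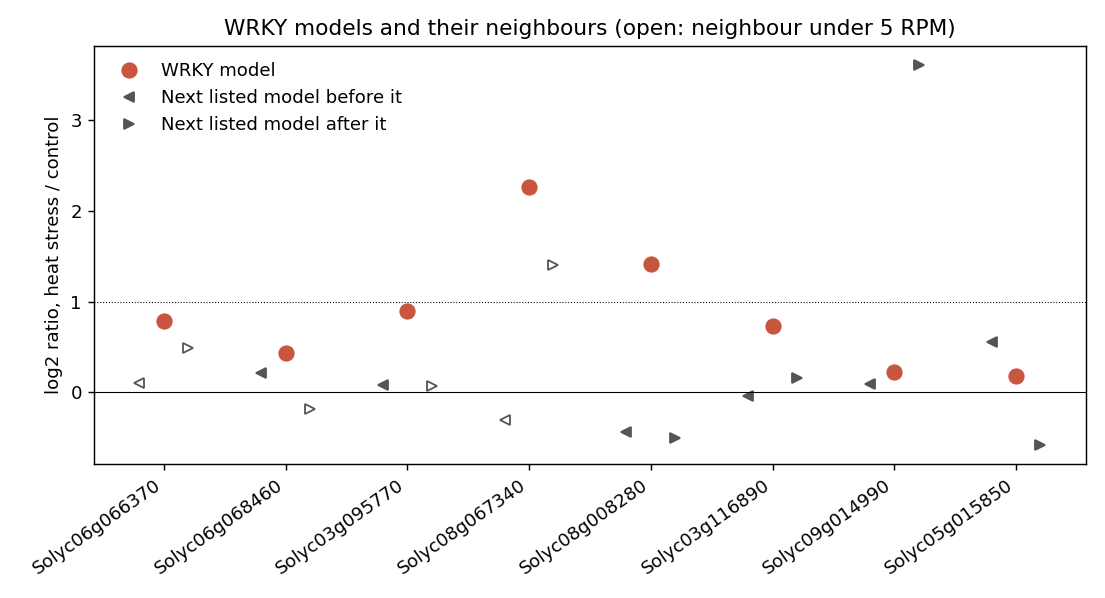
log2 ratio of heat stress to control (vertical axis) for each WRKY model (red circles) and the next listed model before and after it in identifier order (grey triangles, open when the mean is under 5 RPM); the dotted line marks 2-fold higher. The neighbours lie mostly near 0, apart from Solyc09g015000.2 at 3.61 and Solyc08g067360.2 at 1.41.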

How the data were processed

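Leaf RNA of 1 control and 1 heat-stress library was profiled by MACE. FastQC is the only tool in the submitters' processing notes; aligner, build, annotation and strand setting are not stated there or in the labels. Per the file headers, the deposited tables hold an estimated count of reads per model (fractional where a read was divided), the count of all mapped reads, and a highest peak signal in reads. The deposited column headed TPM equalled reads per 1000000 mapped reads, so it is RPM (largest difference 3.42e-08).

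Models absent from a library were set to 0. Intervals at 95% were exact Poisson for levels, conditional exact binomial (Clopper-Pearson) for ratios and conditional exact for ratios of ratios, on rounded reads (scipy 1.17.1). They cover counting error only. One read equals 0.0867 RPM for control and 0.0722 RPM for heat stress. Reads were called whole within 0.000001. Log2 ratios used a pseudocount of 1 RPM, which understates changes of low models. The calculations were run on simulated Poisson counts, the error the intervals assume. That checks the code, and cannot show how the intervals do with divided reads or spread between plants. Named were all members and any adjacent model past 5 RPM and 2-fold or with the same peak heights in both libraries. Alternatives were other pseudocounts, scalings, filters and thresholds, and the peak height.

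Members and lists were chosen with earlier results of these data known. None of the identifiers matched the 41476 reference genes (0 matched), so other WRKY genes could not be identified, also not among the neighbours. No sequences were analysed here.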

Additional observations from a re-analysis of the deposited data

How the results depend on the processing

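The log2 ratio of each WRKY model was recomputed with 2 other pseudocounts, 3 other scalings and the peak height, 48 values in all. None was below 0, and 44 moved less, relative to the width of their counting interval, than the other 4. The other 4 were Solyc08g067340.2 at 1.74 with a pseudocount of 5 RPM and 1.51 from the peak, and Solyc08g008280.2 at 0.93 and Solyc03g095770.2 at 0.55 from the peak. The count of 2 WRKY models 2-fold higher became 0 with a filter of 20 RPM, which removes both, and 1 with a 4-fold threshold, from the peak height, and with only whole-number reads, which removes Solyc08g067340.2. The count of 0 lower models held under every alternative run. The median of 0.84 became 0.73 with a pseudocount of 5 RPM and 0.59 from the peak. The ratio of sums, 1.95, became 1.81 with median ratio scaling, 1.74 from the peak and 1.71 without Solyc08g067340.2. Over all models, 441 higher and 187 lower became 267 and 112 with a pseudocount of 5 RPM, 248 and 115 with a filter of 20 RPM, and 87 and 9 with a 4-fold threshold. With whole-number reads they were 296 and 116. Keeping whole-number reads and leaving out Solyc08g067340.2 were chosen after seeing the data. Depth limits Solyc05g015850.2 most, with 17 and 25 reads. No paired analysis was possible because there is a single library on either side.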
